A study of Rattus norvegicus with 12 samples.

Results

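The comparison described here sets every estradiol-treated trigeminal ganglion against every vehicle-treated one, with the 3 estradiol doses pooled. Members were taken by their labels: 9 estradiol (E2) libraries and 3 vehicle libraries, which together are all 12 libraries of the series. Each library was made from right trigeminal ganglia of female Sprague Dawley rats, each with an implanted capsule for 1 week. The vehicle capsule held cholesterol only. The E2 capsules held 5% E2 (3 libraries, equated in the labels with diestrus), 20% E2 (3 libraries, equated with proestrus) or 40% E2 (3 libraries, called therapeutic). All 4 groups share sex, strain, capsule and duration. No source used here gives the rats' age, the state of their ovaries, or whether a library came from 1 animal. The p-values below therefore measure only the spread between libraries, which may be technical.

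Cell bodies of sensory neurons that serve the face, teeth and meninges lie in the trigeminal ganglion, wrapped by satellite glia and joined by Schwann cells, vessels and resident macrophages. E2 is the main ovarian estrogen. It acts through the nuclear receptors ERα and ERβ, which bind DNA and change transcription, and through a membrane receptor, GPER. Sensory neurons and glia of this ganglion are known to carry estrogen receptors, and pain conditions of this territory such as migraine vary with estrogen level. Pooling the doses asks which genes respond to the presence of an E2 capsule whatever its strength.

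Expression was read as FPKM (sequenced fragments divided by the length of the gene model and by the depth of the library), deposited for 32545 rat genes with Ensembl identifiers. The files pair these identifiers with no gene names, and 0 of them matched the reference table, so genes are given by identifier and neither the tissue's defining markers nor any pathway could be looked up. Recovered depth was 13559866 to 16978830 fragments in the vehicle libraries and 13281981 to 16900117 in the E2 libraries. A gene was tested if it reached 1 FPKM in at least 3 libraries, which 14781 did. In bulk tissue, fewer cells of a type and less RNA per cell cannot be told apart.

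No gene passed the threshold between pooled E2 and vehicle (limma, adjusted p under 0.05; smallest adjusted p = 0.398). That is 0% of the 14781 genes, higher or lower. At an unadjusted p under 0.05, limma gave 553 genes with higher values under E2 (3.74% of those tested) and 517 with lower values (3.5%). The median of the signed differences was 0.01 on the log2(FPKM + 1) scale, with 7651 genes higher under E2. It therefore does not give the size of a typical difference. The SD of the differences over genes was 0.226, and 115 genes differed by 1 or more. The estimates were tight for most genes, with a median standard error of 0.11. For 13546 genes (91.6%) the 95% confidence interval of the difference lay within 1 log2 unit of 0, and for 12001 (81.2%) it lay within a change of 1.5-fold on the log2(FPKM + 1) scale. For low genes that scale understates the change in FPKM itself. For the remaining genes the interval reached beyond 1.5-fold.

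The 2 leading genes with higher values under E2 were ENSRNOG00000016794 and ENSRNOG00000017198, and the 2 leading genes with lower values were ENSRNOG00000008257 and ENSRNOG00000018350. None of the 4 passed, and the values that follow describe them.

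ENSRNOG00000016794 had 2.82, 1.77 and 2.58 FPKM in the 3 vehicle libraries. In the 9 E2 libraries its lowest, median and highest values were 3.45, 4.25 and 5.63 FPKM. All 9 E2 libraries lay above all 3 vehicle libraries. The means were 2.39 ± 0.551 FPKM (SD, n = 3) in vehicle and 4.39 ± 0.687 (SD, n = 9) under E2, a ratio of 1.84. The log2 difference was 0.67 ± 0.13 (SE, limma adjusted p = 0.398). The dose means were close to each other, at 4.67 ± 0.486 FPKM with 5% E2, 4.25 ± 1.20 with 20% and 4.26 ± 0.194 with 40% (SD, n = 3 each). Its values rested on 30 to 62 fragments per vehicle library and 59 to 105 per E2 library, over a gene model of 1262 bases.

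ENSRNOG00000017198 was low in vehicle, at 0.223, 1.23 and 0.373 FPKM. Under E2 its lowest, median and highest values were 1.43, 2.30 and 3.97 FPKM, again all above vehicle. Its ratio was the larger of the 2 higher genes, at 3.82, with means of 0.608 ± 0.542 (SD, n = 3) and 2.32 ± 0.718 FPKM (SD, n = 9). The log2 difference was 1.07 ± 0.21 (SE, limma adjusted p = 0.398). Its vehicle libraries held 8 to 34 fragments and its E2 libraries 40 to 140. The dose means were 2.19 ± 0.381, 2.49 ± 1.32 and 2.27 ± 0.329 FPKM at 5%, 20% and 40% E2.

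ENSRNOG00000008257 had 4.61, 2.88 and 2.87 FPKM in the vehicle libraries and 0.948, 1.44 and 1.81 FPKM as the lowest, median and highest of the E2 libraries. Every E2 library lay below every vehicle library. The means were 3.45 ± 1.00 FPKM (SD, n = 3) in vehicle and 1.43 ± 0.329 (SD, n = 9) under E2, so that E2 had 0.413 of the vehicle level. The log2 difference was −0.87 ± 0.16 (SE, limma adjusted p = 0.398). Vehicle replicate 1 was the highest of its 12 libraries. Fragments were few, at 40 to 83 per vehicle library and 15 to 32 per E2 library.

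ENSRNOG00000018350 was the best covered of the 4, with 572 to 825 fragments per vehicle library and 487 to 700 per E2 library over a model of 2279 bases. It had 20.8, 18.7 and 21.5 FPKM in vehicle, and its lowest, median and highest E2 values were 15.8, 16.1 and 18.0 FPKM. The groups did not overlap, but E2 had 0.804 of the vehicle level, a small difference. The means were 20.3 ± 1.44 FPKM (SD, n = 3) and 16.3 ± 0.663 (SD, n = 9), and the difference on the log2 scale was −0.30 ± 0.06 (SE, adjusted p = 0.398 by limma). It had 16.1 ± 0.271, 16.9 ± 0.976 and 16.1 ± 0.3 FPKM at 5%, 20% and 40% E2.

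**Figure D1:**
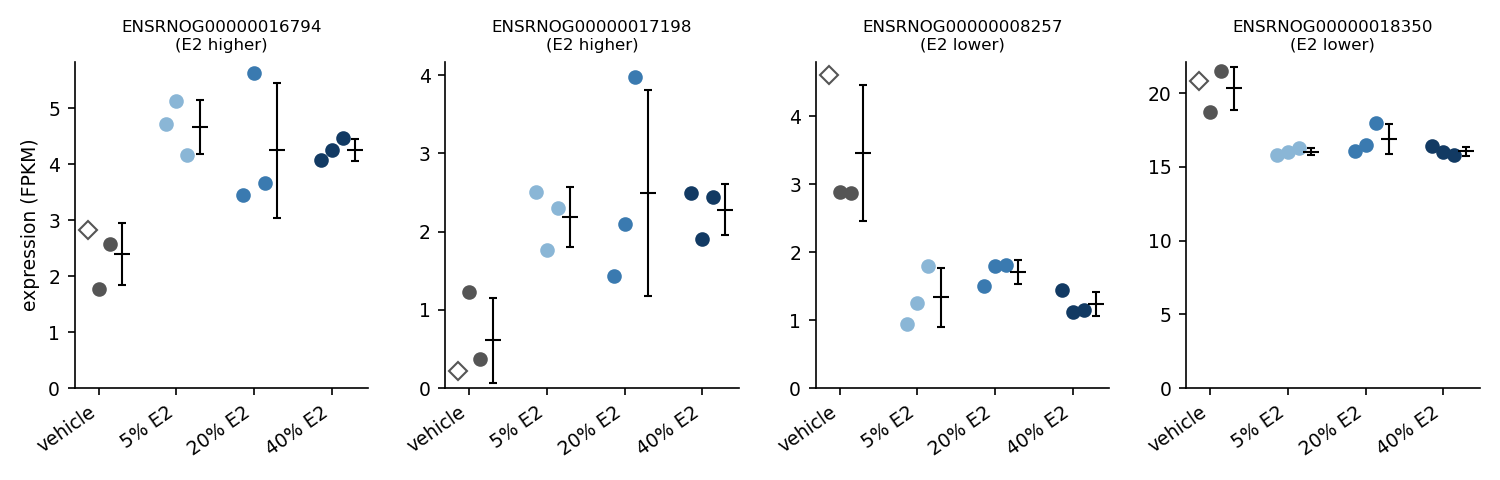
Expression in FPKM (y axis, from 0) of the 4 leading genes in each of the 12 libraries, by capsule group (x axis). Points are libraries, the open diamond is vehicle replicate 1, and the bar beside each group is its mean ± SD (n = 3). The genes were chosen for a small pooled p, which favours dose groups that sit together and apart from vehicle, as for ENSRNOG00000018350 with 16.1, 16.9 and 16.1 FPKM against 20.3.

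The 3 doses share the vehicle libraries, so their differences from vehicle are given side by side and not as separate support. ENSRNOG00000016794 differed by 0.75, 0.62 and 0.65 log2 units at 5%, 20% and 40% E2 (SE 0.17 each), and ENSRNOG00000017198 by 1.03, 1.11 and 1.07 log2 units (SE 0.28). ENSRNOG00000008257 differed by −0.93, −0.70 and −0.97 (SE 0.19), and ENSRNOG00000018350 by −0.32, −0.25 and −0.32 (SE 0.07). No dose alone passed for any of the 4 genes (limma adjusted p 0.344 to 0.868). The test of a difference among the 3 doses gave unadjusted p-values of 0.714, 0.964, 0.330 and 0.588 in the same order (limma F-test, adjusted p = 1 for all 4).

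Over all genes, no difference among the E2 doses passed the threshold (limma F-test, 0% of genes, smallest adjusted p = 0.0651), with 532 genes (3.6%) at an unadjusted p under 0.05. That count of passing genes was not stable: 7 of 23 other settings gave between 1 and 4 genes. Leaving out 5% E2 replicate 2 gave 4, leaving out 20% E2 replicate 1 gave 2 and leaving out 20% E2 replicate 3 gave 1.

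Beyond these 4 genes, the list of smallest p was extended to 12 genes in each direction with a mean of at least 30 fragments per library. The 12 with higher values differed by 0.31 to 1.08 log2 units (limma adjusted p 0.398 to 0.461). The 12 with lower values differed by −0.87 to −0.23 (adjusted p 0.398 to 0.425). Their vehicle levels spanned 0.608 to 324 FPKM and their gene models 342 to 5825 bases. The doses pointed the same way in all 24, and 0 of the 24 had an unadjusted p under 0.05 among the doses. The choice of genes by a small p in the pooled comparison favours such a pattern. E2 and vehicle libraries did not overlap in 10 of the 12 higher and 11 of the 12 lower genes. Over all genes tested, 93 lay wholly higher under E2 (0.629%) and 92 wholly lower (0.622%).

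The genes with the largest differences were another set. Among genes with at least 30 fragments on average, the 20 with the largest difference had sizes of 1.38 to 2.39 log2 units. Of these, 8 were higher and 12 lower under E2. Several of the lower genes rose and fell together over the libraries, so the counts are not of independent genes. For example, genes with 521 and 555 FPKM in vehicle replicate 3 had 14.9 and 11.1 FPKM in 40% E2 replicate 2. Only 1 of the 20 had E2 and vehicle libraries that did not overlap, and the smallest limma adjusted p among them was 0.571. Their median SD among the 9 E2 libraries was 1.26 log2 units, against 0.149 for the median gene. These genes thus varied widely among the E2 libraries, which a choice by size of difference favours. Their SD among the 3 vehicle libraries ran from 0.0195 to 2.79 log2 units.

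Over all genes, the separation of E2 from vehicle libraries did not pass the test. The split into E2 and vehicle accounted for 10.4% of the total squared distance between libraries. The 220 ways of choosing 3 libraries averaged 9.09% (exact permutation test, one-sided p = 0.0727; the smallest p this design allows is 0.00455). Leaving out vehicle replicate 1 gave 10.5% against an average of 10% (exact permutation p = 0.200 over 55 ways). The value passed 0.05 without vehicle replicate 2 (exact permutation p = 0.0364) and without 5% E2 replicate 3 (exact permutation p = 0.0242). It did not pass without any other single library.

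Vehicle replicate 1 lay apart from the other 11 libraries, and it is 1 of the only 3 controls. Its root mean square distance from the mean of the E2 libraries was 0.404 on the log2(FPKM + 1) scale, against 0.341 and 0.325 for vehicle replicates 2 and 3. An E2 library lay 0.302 to 0.350 from the mean of the other 8. So vehicle replicates 2 and 3 lay within the range of these E2 distances, replicate 2 near its upper end, and vehicle replicate 1 lay above it. Vehicle replicate 1 was the highest of the 12 libraries in 15.7% of genes and the lowest in 17.9%, where the other libraries had 6.03% to 11.1% and 5.43% to 10.9%. Weights estimated by limma gave it 0.427, against 0.707 to 1.38 for the others.

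Its departure was spread over many genes. Only 2 genes with at least 30 fragments lay more than 1 log2 unit above every other library, and 1 lay that far below. The other libraries had 0 to 17 such genes above and 0 to 4 below. The most extreme gene had 72.8 FPKM in vehicle replicate 1 and 0 to 22.8 FPKM in the other 11, over a model of 213 bases. Of the 16 genes in which it departed most from the mean of the others, 8 each way, 6 lay outside the range of the other 11 libraries. One with 89.6 FPKM in vehicle replicate 1 ranged from 3.5 to 164 FPKM elsewhere.

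Its deviations varied with gene length. In vehicle replicate 1, genes with recovered models over 8000 bases had a median 0.20 log2 units below the mean of the other libraries, and those of 4000 to 8000 bases 0.09 below. Genes of 500 to 1000 bases were 0.09 above and those of 1000 to 2000 bases 0.07 above. Over the classes above 500 bases the median thus fell with length. The 1477 genes of up to 500 bases were at −0.05, so the deviations did not run one way over all classes. Recovered lengths of thinly covered genes may be too small, which can place genes in that class wrongly. With each library's trend on length removed, its mean distance was 1.12 times the median of the other libraries, against 1.13 times before, so the library lay about as far apart. The contrast of models of 500 to 2000 bases with those over 4000 bases was 0.180 in this library, −0.05 and −0.00274 in vehicle replicates 2 and 3, and −0.113 to 0.05 in the E2 libraries. As a difference between vehicle and E2 it did not pass (0.06, exact permutation two-sided p = 0.305, adjusted 0.305). Vehicle replicate 1 also had the fewest genes above 0, 17843, though it was the deepest library at 16978830 fragments. Vehicle replicates 2 and 3 had 18112 and 18636 genes above 0, and the E2 libraries 18233 to 18836. Vehicle replicate 2 thus also lay below every E2 library. The vehicle mean minus the E2 mean was −339 genes (exact permutation two-sided p = 0.0955, adjusted 0.191 over these 2 measures, which were chosen after the values were seen).

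The direction of the pooled comparison also varied with gene length. Of the 284 genes with models over 8000 bases, 77.8% had a higher mean under E2 with all libraries and 35.6% without vehicle replicate 1. Of the 2402 genes of 4000 to 8000 bases, 63.9% were higher with all libraries and 47.4% without it. Leaving out vehicle replicate 2 or 3 instead left 82.4% and 80.3% of the longest genes higher. Genes of 1000 to 2000 bases leaned the other way, with 45.1% higher with all libraries and 50.2% without vehicle replicate 1. With each library's trend on length removed, 0 genes passed and 551 and 524 genes had higher and lower values at an unadjusted p under 0.05, close to the 553 and 517 with the trend in place.

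**Figure D2:**
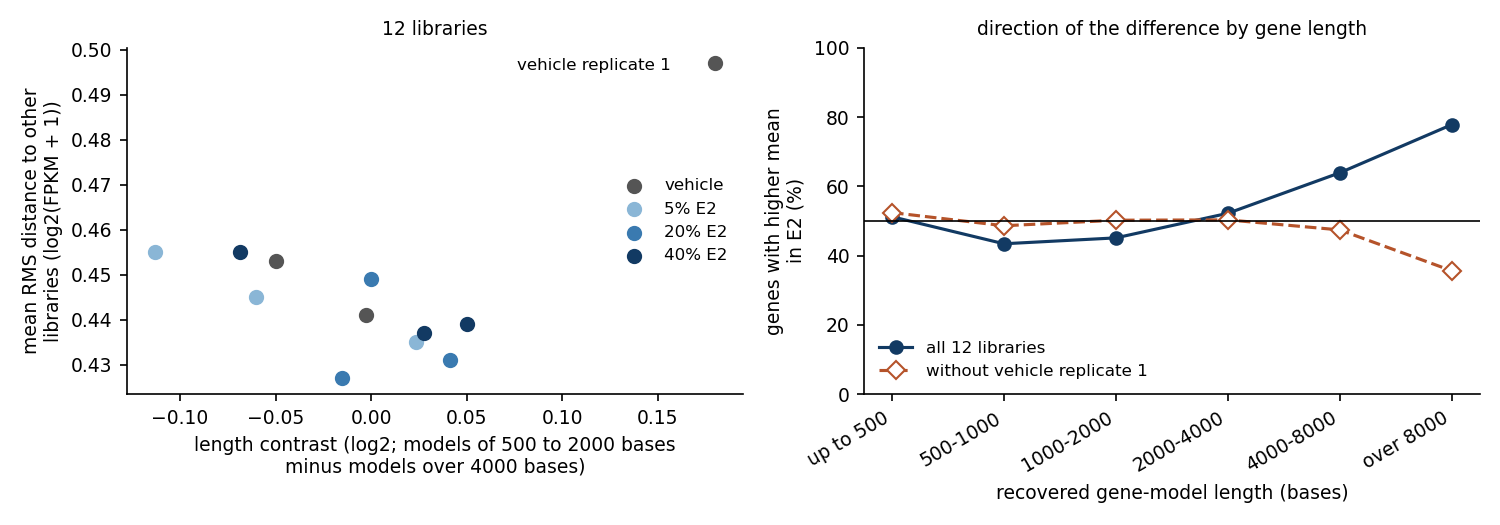
Left, mean root mean square distance of each library to the others (y axis, log2(FPKM + 1)) against its length contrast (x axis, log2), 1 point per library, coloured by group. Right, percent of genes with a higher mean under E2 (y axis) by class of recovered gene-model length in bases (x axis), with all 12 libraries (filled) and without vehicle replicate 1 (open). Vehicle replicate 1 stands alone at 0.180 and 0.497, and in genes over 8000 bases the share goes from 77.8% to 35.6% when it is left out.

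Without vehicle replicate 1, the comparison of 9 E2 with 2 vehicle libraries again gave 0 genes past the threshold (0%, limma, smallest adjusted p = 0.192). The count at an unadjusted p under 0.05 went from 1070 to 693, with 365 genes higher under E2 (2.47%) and 328 lower (2.22%). Spread evenly, p-values would put 739 genes in each of 20 bins. Genes vary together over libraries, so the scatter of bin counts around 739 is not known. Departures from it were not tested. With all libraries the lowest bin held 1070. Without vehicle replicate 1 it held 693, and the bins ranged from 680 to 809. When vehicle replicate 2 or 3 was left out instead, so that vehicle replicate 1 made up 1 of 2 controls, the lowest bin held 1403 and 1472 genes, with 0 past the threshold in either case (smallest adjusted p 0.0825 and 0.211). All 3 fits have 2 controls, with median standard errors of 0.119, 0.122 and 0.124.

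**Figure D3:**
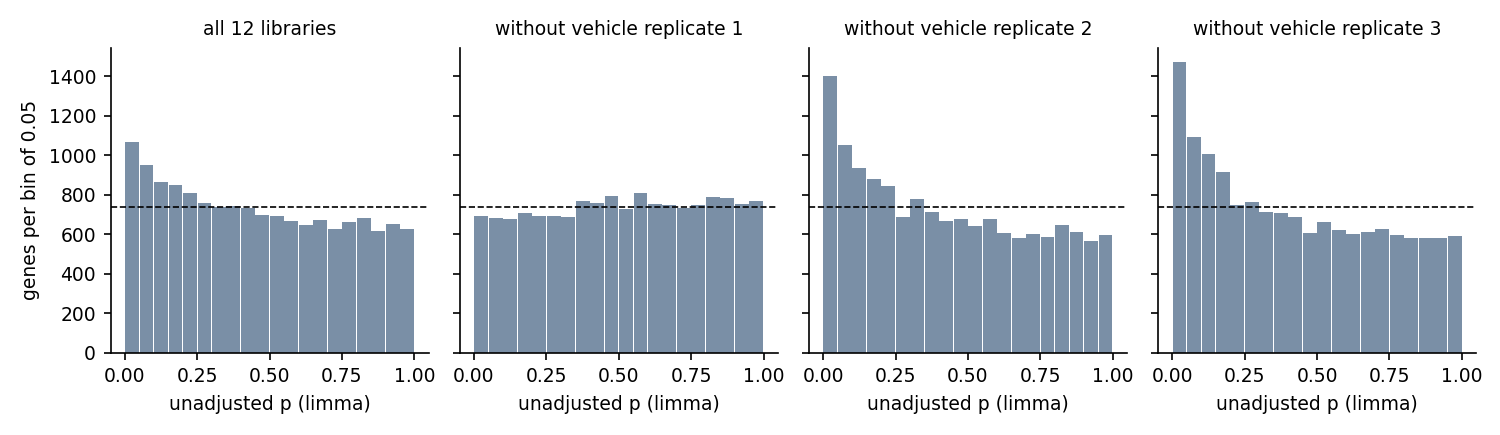
Number of genes (y axis) in bins of 0.05 of the unadjusted limma p (x axis) for E2 against vehicle, with all 12 libraries and with each vehicle library left out. The dashed line marks 739 genes, the height of an even spread, and departures from it were not tested. The lowest bin stands at 1070, 693, 1403 and 1472 genes from left to right, and the lowest bin is under the line only without vehicle replicate 1.

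Of the 1070 genes at an unadjusted p under 0.05 with all libraries, 400 were also under 0.05 with the same direction without vehicle replicate 1, which is 37.4% of the first list and 57.7% of the second. In 269 of the 1070 (25.1%) vehicle replicates 2 and 3 both lay inside the range of the E2 libraries, as they did for 67.1% of all genes. Vehicle replicate 1 was the vehicle library farthest from the E2 mean in 58.6% of the 1070, against 48.8% of all genes tested. The 1070 were chosen with vehicle replicate 1 in the fit, which bears on each of these shares.

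Without vehicle replicate 1, ENSRNOG00000016794 differed by 0.77 ± 0.15 log2 units (SE, limma adjusted p = 0.372) and ENSRNOG00000017198 by 0.90 ± 0.23 (adjusted p = 0.892). ENSRNOG00000008257 went from −0.87 to −0.69 ± 0.17 (adjusted p = 0.657), and ENSRNOG00000018350 was at −0.28 ± 0.07 (adjusted p = 0.651). Over the alternatives the adjusted p ranged from 0.240 to 0.559, 0.155 to 0.892, 0.223 to 0.657 and 0.199 to 0.651 in that order. All 24 leading genes kept their direction and an unadjusted p under 0.05 without vehicle replicate 1, which their choice by smallest p in a fit sharing the other 11 libraries largely fixes. The difference was smaller without it in all 12 lower genes and in 7 of the 12 higher genes. Their choice with that library in the fit favours a smaller difference once it is left out. Of the 8 leading genes in each direction without that library, 3 higher and 2 lower ones were among the 24.

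**Figure D4:**
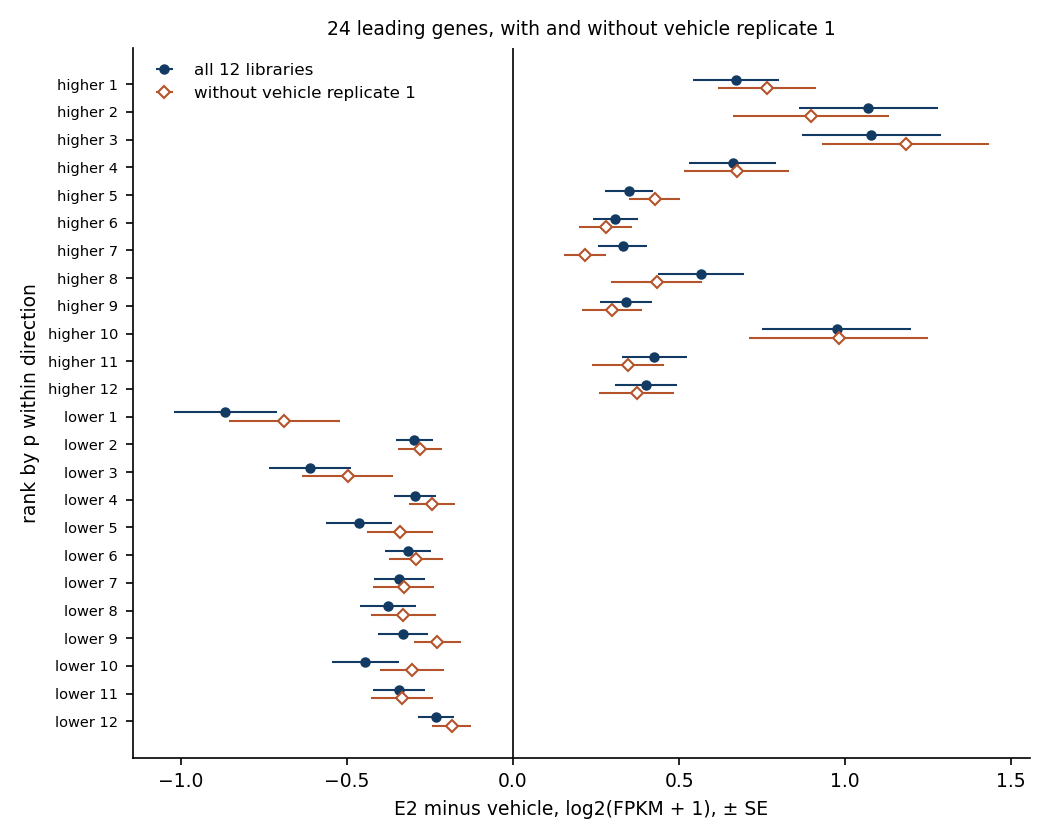
Difference of E2 from vehicle on the log2(FPKM + 1) scale (x axis, point ± SE) for the 24 leading genes, ordered by p within each direction (y axis). Filled circles use all 12 libraries and open diamonds leave out vehicle replicate 1. The choice of genes by p largely fixes their side of 0; with all libraries the differences run from 0.31 to 1.08 in the higher genes and from −0.87 to −0.23 in the lower genes.

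Other genes led when that library was left out. The leading gene with higher values had 1.73 and 1.65 FPKM in vehicle replicates 2 and 3 and 3.54 in vehicle replicate 1, beside 2.64 to 3.90 under E2. Its log2 difference was 0.44 ± 0.15 (SE) with all libraries and 0.69 ± 0.12 without (limma adjusted p = 0.591 and 0.224). The leading gene with lower values had 4.29 and 3.90 FPKM in vehicle replicates 2 and 3, 0.398 in vehicle replicate 1, and 1.18 to 2.40 under E2. Its difference went from −0.36 ± 0.31 to −0.98 ± 0.17 (adjusted p = 0.819 and 0.224). In both genes vehicle replicate 1 lay on the E2 side of the other controls, inside or beyond the E2 range.

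A single gene passed when each dose had its own mean in the fit and the 3 were averaged. This was ENSRNOG00000054324, named here after its values were seen, which differed by −2.25 ± 0.27 log2 units (SE, adjusted p = 0.0375 by limma). In the 2-group fit it had the same difference with a standard error of 0.46 and an adjusted p of 0.413, and 0.906 without vehicle replicate 1. Its levels were 6.78 ± 3.00 FPKM in vehicle (SD, n = 3) and 0.823 on average under E2, listed at 0 in 5 of 9 libraries. These rest on 26 fragments in all vehicle libraries together and 9 in all E2 libraries, over a recovered model of 79 bases. Both counts and this length are the smallest that fit the values.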

How the data were processed

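Library preparation used an NEBNext Ultra kit, per the labels' protocols. Each library's file holds FPKM computed by the authors, as its name states. Tools in the submitters' processing notes are CASAVA, fastp, HISAT2, featureCounts and DESeq2, with no version or role. No source used here gives the genome build, annotation or strand setting, so overlapping, antisense and near-identical genes may share reads. A table of the whole series repeats these values under a misaligned header and was not used.

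Whole fragments and gene-model lengths were recovered from the FPKM values (21071 of 21071 genes above 0 in at least 2 libraries, tolerance 0.0002 of a fragment). Where several whole numbers fit, the smallest was taken, so lengths and fragments of thinly covered genes may be too small. No molecular identifiers were used to tell PCR copies apart, as far as the labels say. To look for a library deposited more than once, fragments were compared within groups. The lowest chi-square was 7.26 per degree of freedom, so no pair was merged. That comparison covers counting error only, which separate libraries usually exceed.

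Genes with 1 FPKM in at least 3 libraries were tested on log2(FPKM + 1) with limma 3.58.1 (R 4.3.3), trended and robust, in 1 fit of all 12 libraries with 2 groups. Benjamini-Hochberg adjustment covered all 14781 genes, with a threshold of 0.05. Dose values come from a 4-group fit. Differences between libraries were tested by exact permutation. Fits were also run on simulated data, whose outcome is not given here. That simulation drew each gene separately and held no library that departs over many genes, so it does not cover vehicle replicate 1. The rule took the 12 genes of smallest p each way, with a mean of at least 1 FPKM and 30 fragments, of which 2 each way are named by identifier. It also asked for a gene symbol, as did the planned gene lists and cell type markers. With 0 identifiers matched, that condition was dropped and the lists were not analysed here. The comparison, rule and lists were chosen with earlier results of these data known.

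Alternatives were a pseudocount of 0.1, no or a stricter filter (5 FPKM), each library left out, a replicate block, 4 group means, sample weights, median-of-ratios scaling, non-robust moderation and voom on recovered fragments. Removal of each library's length trend and a minimum of 30 fragments were chosen after seeing the data.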

Additional observations from a re-analysis of the deposited data

Results flagged for a closer look

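In 4 of 27 results checked, 1 of the 9 E2 libraries stood apart from the other 8 by more than chance gives in about 1 group in 20. ENSRNOG00000017198 had 3.97 FPKM in 20% E2 replicate 3, with the others at 1.43 to 2.50. ENSRNOG00000018350 had 18.0 FPKM in the same library, with the others at 15.8 to 16.5. Another leading gene, of 1749 bases, had 4.82 FPKM in 5% E2 replicate 1 (others 3.11 to 3.85), the value that made E2 and vehicle overlap there. One more leading gene had 62.2 FPKM in 40% E2 replicate 1 (others 73.0 to 83.2).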

How the results depend on the processing

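Pooled E2 against vehicle gave 0 genes past the threshold in 21 of 23 alternatives, the replicate block (0) among them. With no filter on low values 4 genes passed, all lower under E2, on 6 to 73 vehicle fragments in all, and with 4 group means 1 passed. Of those 4, the gene with 73 vehicle fragments was also tested in the main fit (limma adjusted p = 0.398). Its standard error was 0.162 there and 0.11 without the filter, with the same difference of −0.85 log2 units. The fits differed only in the genes included, which enter the trended, robust moderation of its variance. Which of the added genes lowered the standard error was not tested. The 24 leading genes kept their direction in all 545 values, as their choice by p favours, and none passed. Dose differences passed in 2 genes with the stricter filter, 1 with sample weights, 2 with voom, 2 with a minimum of 30 fragments, and 0 to 4 with 1 library left out. Separation was 10.5% to 12.4% with 1 library left out (exact permutation one-sided p 0.0242 to 0.200). These shares cannot be set directly against the 10.4% of all 12 libraries. The average of all choices was 9.09% with all 12 and 10% without vehicle replicate 1. The distance of vehicle replicate 1 was 1.13 times the median of the others, 1.16 times with the stricter filter and 1.12 times with the length trend removed. Same-numbered libraries did not deviate together (correlations −0.05 to 0.08, 4 of 12 closest to their own number), so no pairing by number was seen. Weak correlations over all genes cannot show that the numbers mark no shared handling.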
